A study of Rattus norvegicus with 6 samples.

Results

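Cholesterol synthesis, uptake and sterol control were described through 30 genes chosen by symbol, in HEI-OC1 cells in which an siRNA lowered Hnrnpd and in cells given a control siRNA. Of these, 29 were matched to rows of the deposited count table, which has 18718 genes, and all 29 were among the 12268 genes that passed the filter on low counts. Abcg1, a cholesterol exporter, was not matched to a row by symbol and was not analysed here. The genes were sorted by role into 8 of the mevalonate arm, 10 of the sterol arm, 5 that control the SREBP factors, 3 of sterol transport and 4 linked to the liver X receptors (LXR), of which 3 had values.

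HEI-OC1 is an auditory line established from the mouse organ of Corti, while the labels name the rat, and the deposited identifiers are rat gene identifiers. Which species the reads came from was not tested. Each of the 2 groups had 3 libraries of total RNA, named here siHnrnpd 1 to 3 and control 1 to 3. Cells of both groups grew at 37 °C and 5% CO2 in medium with 10% serum. The labels give no culture or batch for the replicates. The p-values therefore set each group difference only against the spread of these libraries, and that spread may be technical. Values in CPM, which are counts scaled to a common library size, compare 1 gene between libraries, and the authors' FPKM, which divides by transcript length, compares genes with each other.

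Cells make cholesterol from acetyl-CoA, first along the mevalonate pathway to squalene and then through a series of sterol intermediates. The transcription factors SREBP-1 and SREBP-2 switch these genes on when the endoplasmic reticulum is low in cholesterol, because SCAP then carries them to the Golgi to be cut, while INSIG proteins hold SCAP back when sterols are plentiful. The LXR proteins act in the other direction: oxysterols activate them, and they switch on exporters such as Abca1 and the ubiquitin ligase Mylip, also called IDOL, which marks lipoprotein receptors for degradation.

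Hnrnpd, which encodes the RNA-binding protein AUF1 and is listed as Hnrpd (ENSRNOG00000002292), had 319, 303 and 269 CPM in controls 1 to 3 and 177, 200 and 183 CPM in siHnrnpd 1 to 3. The siHnrnpd libraries were all below the controls, at 62.8% of their mean (edgeR quasi-likelihood test, adjusted p = 0.0426). With any 1 control left out, edgeR called 0 genes at all, Hnrnpd included. The libraries held 28984535 to 35842904 counts. The library siHnrnpd 3 stood apart in 19 tested interferon-stimulated genes. Its mean log2 CPM over them was -2.20 from the control mean, against -0.67 in siHnrnpd 1 and -0.49 in siHnrnpd 2. Results are therefore also given without it. Over all genes tested, the farthest pair of libraries was control 1 and siHnrnpd 1. Of 10 hair cell markers, 7 had a row and 2 passed the filter. Their summed level was 32.2 to 41.7 CPM and was nearly all Myo6, with Gfi1 and Calb2 at 0 counts in all 3 controls. The other marker lists summed to 48.9 to 65.5 CPM for supporting cells, highest in siHnrnpd 3 and with Prox1 at 0 counts in controls 2 and 3, to 2.80 to 3.71 CPM for macrophages and to 0.0918 to 0.211 CPM for epithelium. Fibroblast markers, 6 of 8 of them tested, summed to 2783 to 3174 CPM in control and 3171 to 3688 CPM in siHnrnpd, mostly Col1a1, while Dcn and Postn had 2 to 10 counts. Whether these fibroblast transcripts bear on the sterol genes was not tested. In bulk RNA, fewer cells of a type and less RNA per cell cannot be told apart.

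Transcripts of both synthesis arms were present throughout the control libraries. Per transcript length, Fdps had the highest level of the 29 genes, with 418 ± 19.4 FPKM (SD, n = 3), and it makes farnesyl diphosphate, the branch point of the pathway. Npc2, which hands cholesterol on inside lysosomes, had 286 ± 13.8 FPKM, the methylsterol monooxygenase Msmo1 had 285 ± 12.5 FPKM and the cytosolic thiolase Acat2 had 274 ± 13.2 FPKM. These 3 did not differ from each other beyond their spread. The low end was held by Abca1, the ATP-driven cholesterol exporter, at 1.81 ± 0.16 FPKM, then by the sterol carrier Stard4 at 2.34 ± 0.025 FPKM and by Insig2 at 5.66 ± 0.76 FPKM. Among the LXR-linked genes, the receptor gene Nr1h2 (LXR-beta) stood at 41.9 ± 6.71 FPKM and Mylip at 16.9 ± 1.29 FPKM. Among the SREBP control genes, Insig1 had 121 ± 8.65 FPKM, Srebf2 37.07 ± 4.59 FPKM, Srebf1 25.4 ± 3.86 FPKM and Scap 14.4 ± 1.65 FPKM.

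**Figure D1:**
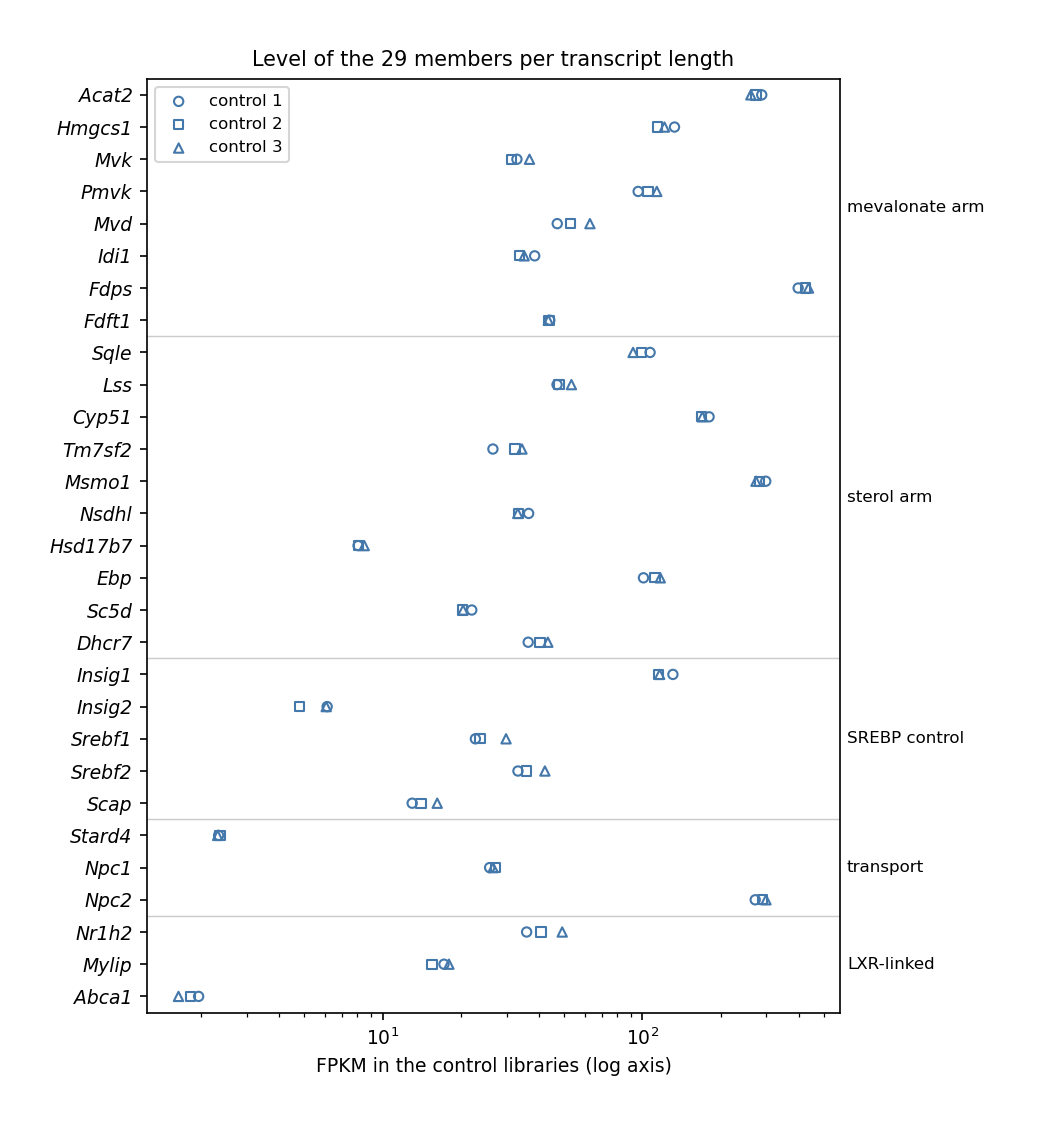
Level of each of the 29 genes in FPKM (log axis) in the 3 control libraries, 1 symbol per library, ordered by role. Fdps is at 418 FPKM on average and Abca1 at 1.81, and the 3 controls lie close together compared with the distance between genes.

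To ask what Hnrnpd reduction did to these genes, the groups were compared in 1 fit over all genes. The LXR-linked gene Mylip was lower in all 3 siHnrnpd libraries than in any control, at 69.1% of the control mean, and Fdft1, which encodes squalene synthase, was higher in all 3, at 131% of the control mean. Stard4 stood at 132%. None of these 3 passed the test over all genes: edgeR's quasi-likelihood test called 0 of the 29 genes at an adjusted p under 0.05, where it called 0.0815% of all genes tested. With DESeq2, and with edgeR without a filter on low counts, 2 of the 29 were called, Mylip and Fdft1, where these fits called 0.866% and 0.785% of all genes.

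At an unadjusted p under 0.05, 5 of the 29 genes were higher (17.2%), against 5.84% of all genes tested, and 2 were lower (6.90%), against 5.20%. The 5 were Fdft1, Mvd, Hsd17b7, Dhcr7 and Stard4, of which the first 4 are synthesis enzymes, and the 2 were Mylip and Abca1. The groups did not overlap in 5 genes that were higher (17.2%), against 8.42% of all genes, and in 2 that were lower, against 8.57%. The first were Fdft1, Hsd17b7, Dhcr7, Insig2 and Stard4, and the second Lss and Mylip. The log2 change was above 0 in 21 of the 29 genes (72.4%), against 51.7% of all genes, and its median was 0.11, against 0.0054. The fitted log2 changes ran from -0.53 for Mylip to 0.40 for Stard4. The count of 5 higher genes became 3 without control 1 (3.37% of all genes in that fit) or without siHnrnpd 1 (3.94%). It was 8 without control 3 (8.84%) and 11 without siHnrnpd 3 (4.93%). Mylip was under that p in each of the 6 fits without 1 library, while Abca1 was under it in 2 of them, those without control 3 or siHnrnpd 2. Lss took its place without control 1, and Npc2 without siHnrnpd 1.

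**Figure D2:**
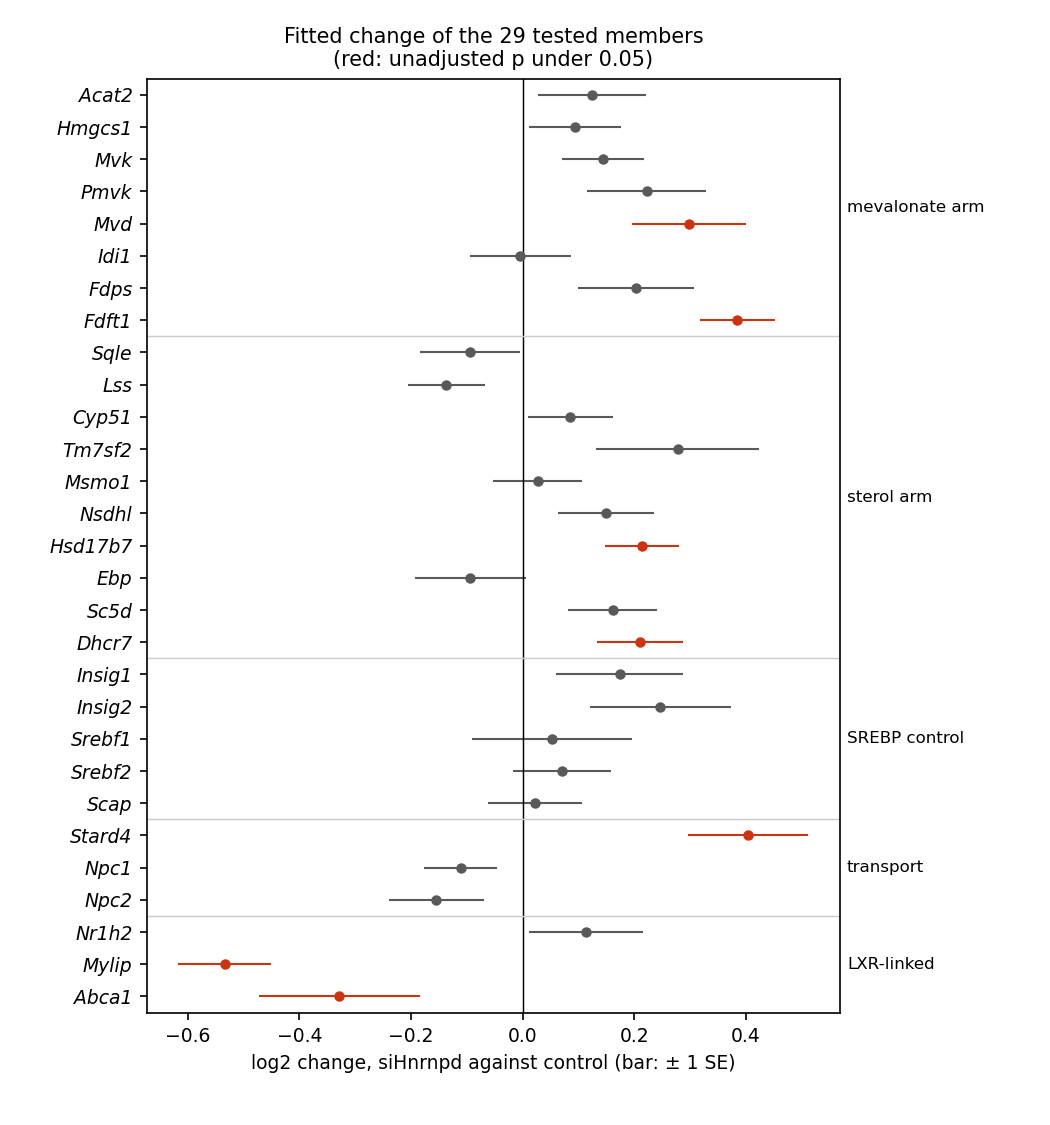
Log2 change (siHnrnpd against control, edgeR) of the 29 genes with bars of 1 SE, ordered by role, with the 7 genes at an unadjusted p under 0.05 in red. Most synthesis genes lie to the right of 0, and Mylip, at -0.53, lies farthest to the left.

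To show the regulatory sequence around the genes with the lowest p, bases 150 to 1 upstream of the start are given for those that RefSeq's table of the rat build GRCr8 holds. In the 300-base windows of that table (250 before to 50 after the start), 25 of the 30 genes had an entry. Fdft1, Stard4, Sqle, Pmvk and Abcg1 did not. Sequences run 5′ to 3′ on the gene's own strand, and capitals mark the box CCAAT, bound by NF-Y, a factor known to work beside SREBPs at sterol genes, or its reverse complement ATTGG. The Mvd stretch is chr19:67414975-67415124 (minus strand), that of Hsd17b7 chr13:84722755-84722904 (minus strand) and that of Dhcr7 chr1:208444284-208444433 (plus strand). The Mylip stretch is chr17:19514472-19514621 (minus strand) and that of Abca1 chr5:72596474-72596623 (minus strand).
Mvd: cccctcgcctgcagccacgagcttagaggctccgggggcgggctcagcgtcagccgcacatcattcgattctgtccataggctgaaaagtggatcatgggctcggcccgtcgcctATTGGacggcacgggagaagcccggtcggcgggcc
Hsd17b7: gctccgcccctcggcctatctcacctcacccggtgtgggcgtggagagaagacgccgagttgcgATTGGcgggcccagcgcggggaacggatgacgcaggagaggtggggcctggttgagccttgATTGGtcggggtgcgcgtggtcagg
Dhcr7: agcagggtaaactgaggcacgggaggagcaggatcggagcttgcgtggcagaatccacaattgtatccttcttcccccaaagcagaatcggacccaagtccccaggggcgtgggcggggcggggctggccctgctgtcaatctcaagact
Mylip: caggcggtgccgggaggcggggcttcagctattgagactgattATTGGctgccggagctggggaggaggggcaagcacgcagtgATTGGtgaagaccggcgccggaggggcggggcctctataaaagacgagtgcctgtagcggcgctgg
Abca1: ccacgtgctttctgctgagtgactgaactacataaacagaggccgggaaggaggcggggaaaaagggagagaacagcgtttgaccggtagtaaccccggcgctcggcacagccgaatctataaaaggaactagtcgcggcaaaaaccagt

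Mylip and Hsd17b7 each had 2 such boxes in these 150 bases and Mvd had 1, while Dhcr7 and Abca1 had 0. In the whole 300-base windows, with both strands searched, CCAAT was found in 18 of the 25 promoters (72.0%), against 38.4% of the promoters of genes tested and 37.7% of all promoters. Of the 15 synthesis genes with an entry, 12 had it (80.0%). The sterol regulatory element that SREBPs bind was searched in 2 forms, also on both strands. The form TCACNCCAC was in 0 of the 25 windows, against 1.15% of promoters of genes tested. The octamer in its spellings CACCCCAC, CACCCTAC, CACCGCAC and CACCGTAC, searched after the first form had been counted, was in 1 of the 25 (Ebp, 199 bases upstream of the start), against 4.86%. Each form is a letter match in rat sequence and not a measured binding site.

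In the mevalonate arm, 7 of 8 genes had a log2 change above 0, with a median of 0.17. Fdft1 (ENSRNOG00000021314, chromosome 15) joins 2 farnesyl units into squalene, the first step that leads only to sterols. It had 163, 165 and 158 CPM in controls 1 to 3 and 220, 219 and 197 CPM in siHnrnpd 1 to 3. The groups lay clear of each other, the siHnrnpd libraries being the 3 highest. The fitted log2 change of 0.38 had an SE of 0.067, and the edgeR adjusted p was 0.0900, or 0.0560 to 0.476 when 1 library was left out and 5.26e-04 with DESeq2.

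Mvd, the decarboxylase that ends the mevalonate steps, had 93.8, 107 and 123 CPM in control and 143, 133 and 123 CPM in siHnrnpd. The groups met at control 3 and siHnrnpd 3 (123.1 and 122.6 CPM). Its log2 value was 0.30 with an SE of 0.10 (edgeR adjusted p = 0.341). Phosphomevalonate kinase, Pmvk, had 124, 137 and 143 CPM in control and 178, 161 and 133 CPM in siHnrnpd, and mevalonate kinase, Mvk, had 45.9, 44.4 and 50.5 against 54.3, 51.1 and 50.2 CPM. In both, siHnrnpd 1 and 2 were above all controls and siHnrnpd 3 was among them, with log2 values of 0.22 and 0.14 (edgeR adjusted p = 0.478 and 0.504).

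The other 4 genes of this arm overlapped as well. Fdps had 1407, 1517 and 1515 CPM in control and 1914, 1766 and 1430 CPM in siHnrnpd, so siHnrnpd 3 lay inside the control range. Acat2, which condenses acetyl-CoA, and Hmgcs1, the HMG-CoA synthase, had log2 values of 0.12 and 0.093. The isomerase Idi1 had -0.0044, at 118 ± 8.09 CPM against 118 ± 12.4 CPM (SD, n = 3 each, control first).

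In the sterol arm, which turns squalene into cholesterol, 7 of 10 genes had a log2 change above 0 and the median was 0.12. Hsd17b7, a ketosteroid reductase of the demethylation steps, had 37.3, 37.9 and 38.7 CPM in control and 41.9, 44.6 and 45.6 CPM in siHnrnpd. Its groups did not overlap, and the log2 value was 0.21 with an SE of 0.066 (edgeR adjusted p = 0.322). Dhcr7, the 7-dehydrocholesterol reductase of the last steps, had 117, 132 and 137 CPM in control and 158, 144 and 146 CPM in siHnrnpd, also without overlap, and its log2 value of 0.21 had an SE of 0.077 (edgeR adjusted p = 0.367). In Dhcr7 the gap between the groups, from 137 to 144 CPM, was narrower than the spread of its controls.

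Lss, the cyclase that forms lanosterol, lay the other way. It had 249, 257 and 278 CPM in control and 246, 241 and 227 CPM in siHnrnpd, and its log2 value of -0.14 had an SE of 0.068 (edgeR adjusted p = 0.497). The 2 groups were separated by a narrow gap between control 1 and siHnrnpd 1. The desaturase Sc5d had 126, 118 and 115 CPM in control and 133, 146 and 123 CPM in siHnrnpd, with overlap between the groups and 0.16 on the log2 scale (edgeR adjusted p = 0.494).

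The remaining 6 genes of the sterol arm overlapped between the groups, with edgeR adjusted p from 0.516 to 0.926. Squalene epoxidase (Sqle) and the sterol isomerase Ebp had log2 values of -0.094 each. Cyp51, the lanosterol demethylase, had 0.085, Msmo1 0.027 and the dehydrogenase Nsdhl 0.15. The reductase Tm7sf2 had 0.28 with an SE of 0.15, and its siHnrnpd libraries were spread from 78.2 to 118 CPM.

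Summed over the 18 synthesis genes, the level was 5710, 5695 and 5618 CPM in controls 1 to 3 and 6496, 6492 and 5496 CPM in siHnrnpd 1 to 3. The libraries siHnrnpd 1 and 2 thus lay above the controls and siHnrnpd 3 below them. In 12 of the 18 genes (66.7%), siHnrnpd 1 and 2 were both above all 3 controls, which held for 14.4% of all genes tested. In siHnrnpd 3 alone, 3 of the 18 genes (16.7%) were above all controls and 6 (33.3%) were below, against 28.9% and 28.0% of all genes. It was the lowest of the siHnrnpd libraries in 15 of the 18 (83.3%), against 33.5% of all genes. This way of counting was chosen after the values had been seen.

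Without siHnrnpd 3, 9 of the 18 synthesis genes were higher at an unadjusted p under 0.05, in place of 4, against 4.93% of all genes in that fit, and 0 were lower, against 5.47%. Their median log2 change was 0.19 in place of 0.15. Tm7sf2 then had 0.42, Fdps 0.30 and Acat2 0.22, and none of the 18 was called over all genes (edgeR adjusted p of Fdft1 = 0.0560). The count was 2 of the 18 without control 1 (3.37% of all genes in that fit) or without siHnrnpd 1 (3.94%). It was 4 without control 2 (2.93%) or without siHnrnpd 2 (5.37%), and 6 without control 3 (8.84%). Leaving out siHnrnpd 2 brought the median to 0.094. The part of siHnrnpd 3's low interferon-stimulated transcripts in these values was not tested.

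**Figure D3:**
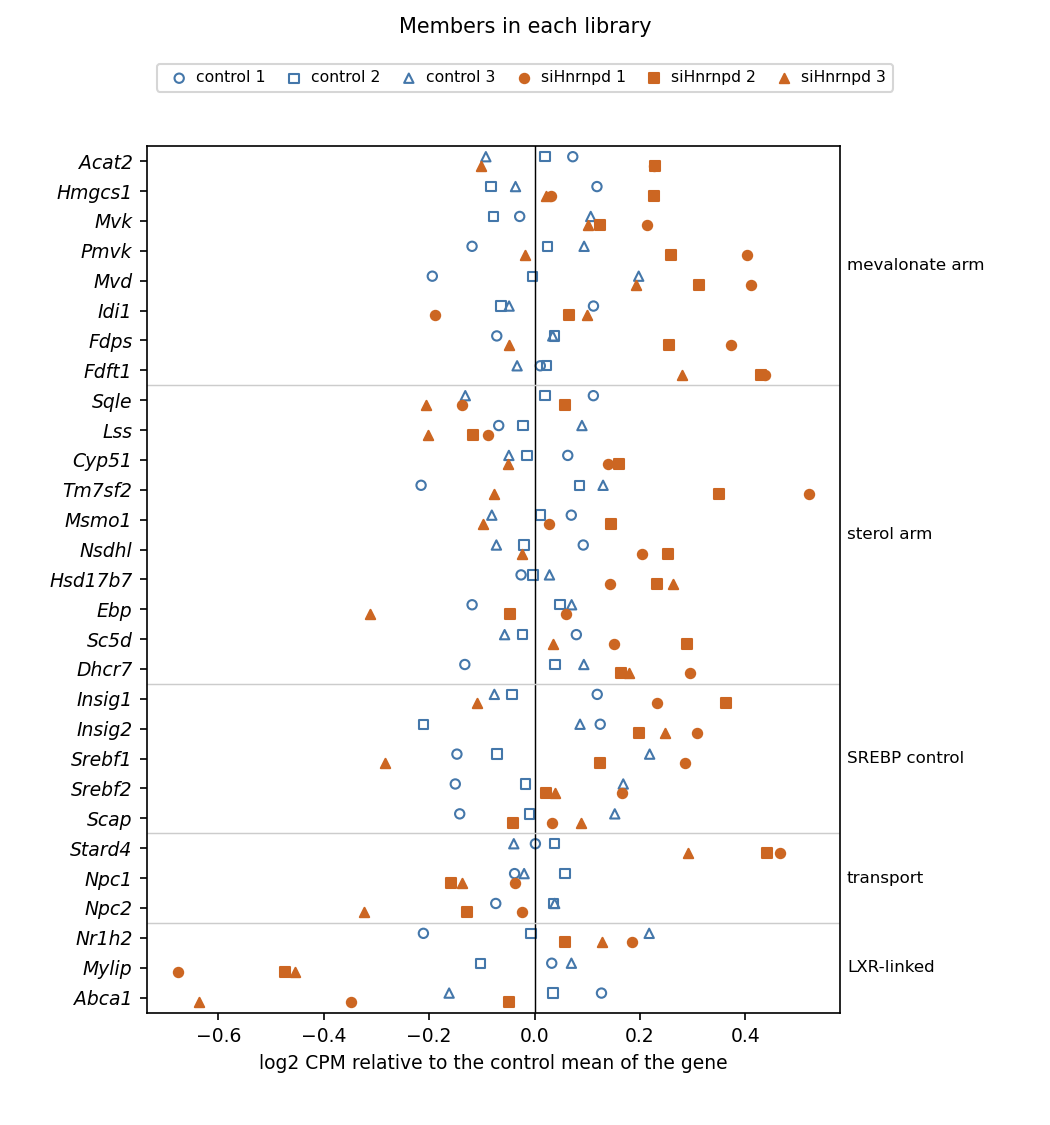
Log2 CPM of each gene in each library relative to the control mean of that gene, with controls as open blue and siHnrnpd libraries as filled orange symbols. In 12 of the 18 synthesis genes the orange circle and square (siHnrnpd 1 and 2) lie right of all controls, while the orange triangle (siHnrnpd 3) is mostly among or left of them.

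The genes that control SREBP showed values above 0 in 5 of 5 cases, with a median of 0.071, and 0 were under an unadjusted p of 0.05. Insig2 had 7.14, 5.64 and 6.95 CPM in control and 8.11, 7.52 and 7.78 CPM in siHnrnpd. Its groups did not overlap, but its log2 value of 0.25 had an SE of 0.13 (edgeR adjusted p = 0.504). Insig1, itself an SREBP target, had 373, 333 and 326 CPM in control and 403, 442 and 318 CPM in siHnrnpd. Its siHnrnpd 3 value was the lowest of the 6 libraries, and the log2 value was 0.17 (edgeR adjusted p = 0.602). It was 0.070 without siHnrnpd 2 and 0.29 without siHnrnpd 3.

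Srebf1, which encodes SREBP-1 and is also an LXR target, had 119, 125 and 153 CPM in control and 160, 143 and 108 CPM in siHnrnpd. Srebf2, which encodes SREBP-2, had 196, 215 and 244 CPM in control and 244, 220 and 223 CPM in siHnrnpd. Both overlapped broadly, with log2 values of 0.052 and 0.071 (edgeR adjusted p = 0.919 and 0.810). Scap had 72.4 ± 7.43 and 73.6 ± 3.33 CPM (SD, n = 3 each). All 3 turned below 0 when control 1 was left out, as did Srebf1 without siHnrnpd 1 and Scap without siHnrnpd 3.

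Among the transport genes, Stard4, which moves sterol between membranes and is a known SREBP target, had 7.38, 7.57 and 7.17 CPM in control and 10.2, 10.02 and 9.03 CPM in siHnrnpd. All 3 siHnrnpd libraries lay above the tightly grouped controls. The log2 value was 0.40 with an SE of 0.11 (edgeR adjusted p = 0.257, and 0.166 to 0.755 over the alternatives). Npc1 and Npc2, which together move cholesterol out of lysosomes, lay on the other side of 0. Npc1 had 157, 168 and 159 CPM in control and 157, 144 and 146 CPM in siHnrnpd, and Npc2 had 401, 433 and 434 against 415, 386 and 337 CPM. Both overlapped between the groups, with log2 values of -0.11 and -0.15 (edgeR adjusted p = 0.561 and 0.533).

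The LXR-linked genes were set beside the synthesis genes. Mylip (ENSRNOG00000017579, chromosome 17) had 62.2, 56.7 and 63.9 CPM in controls 1 to 3 and 38.1, 43.8 and 44.4 CPM in siHnrnpd 1 to 3. Each siHnrnpd library was well below the lowest control, and siHnrnpd 3 was not apart from the other 2. The fitted log2 change of -0.53 had an SE of 0.083, and the edgeR adjusted p was 0.0615. It was 0.0670 to 0.319 with 1 library left out, and 1.51e-05 with DESeq2. By p it ranked 18 among all 12268 genes.

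Abca1 had 23.9, 22.4 and 19.5 CPM in control and 17.2, 21.2 and 14.1 CPM in siHnrnpd. The siHnrnpd 2 value lay inside the control range. The log2 value was -0.33 with an SE of 0.14 (edgeR adjusted p = 0.443), and leaving out siHnrnpd 3 gave -0.20 and leaving out siHnrnpd 2 gave -0.49. Nr1h2, the receptor itself, had 85.0, 97.9 and 114 CPM in control and 112, 102 and 108 CPM in siHnrnpd, all within the control range, and its log2 value was 0.11 at an edgeR adjusted p of 0.724. That value was 0.0036 without control 1 and 0.23 without control 3. In the edgeR fit without control 3, Nr1h2 was higher at an unadjusted p under 0.05, as were 8.84% of all genes.

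**Figure D4:**
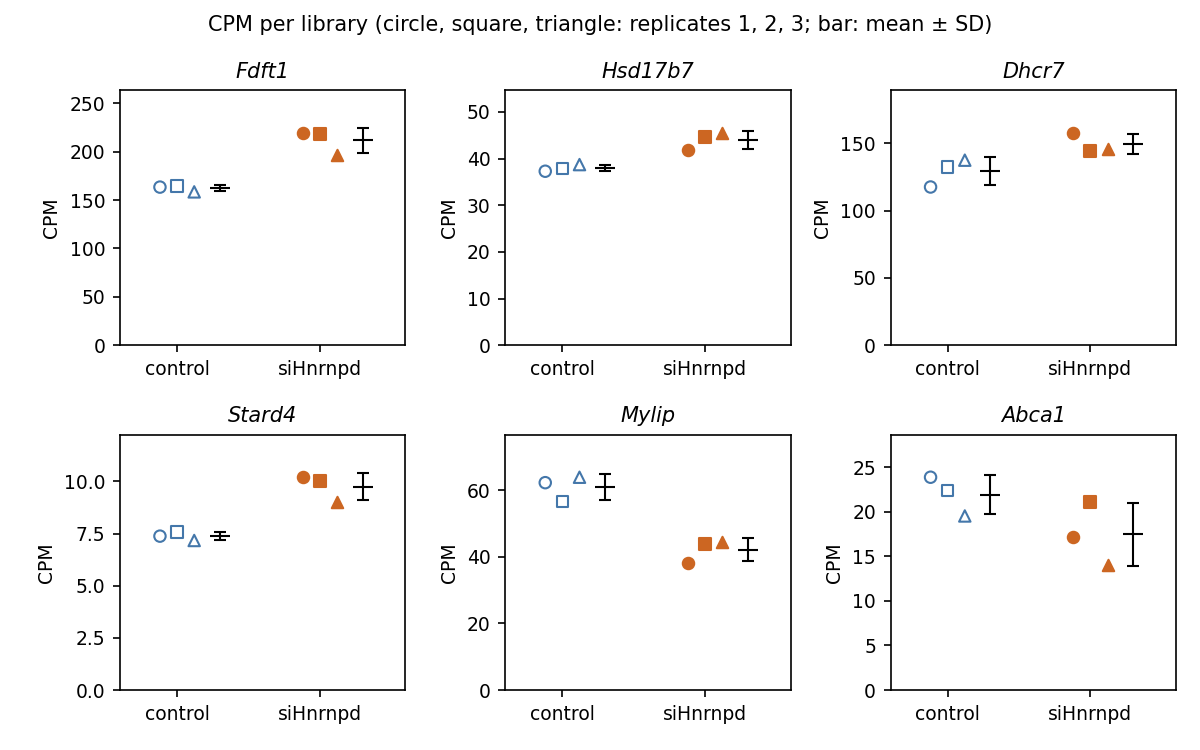
CPM of 6 genes in each library (y axis from 0), with the mean and SD of each group beside the points. Fdft1, Hsd17b7, Dhcr7 and Stard4 are higher in every siHnrnpd library, Mylip is lower in every one (38.1 to 44.4 against 56.7 to 63.9 CPM), and Abca1 overlaps.

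The median log2 change was 0.15 over the 18 synthesis genes and -0.33 over Nr1h2, Mylip and Abca1, a distance of 0.47, while that of all genes tested was 0.0054. By library, the mean of the synthesis genes relative to control was 0.18, 0.19 and 0.0018 in siHnrnpd 1 to 3, and -0.013, -0.00010 and 0.014 in controls 1 to 3. The mean of the 3 LXR-linked genes was -0.28, -0.15 and -0.32 in siHnrnpd 1 to 3 and -0.017, -0.025 and 0.042 in controls 1 to 3. In siHnrnpd 3 the synthesis genes went both ways around their mean, from -0.31 for Ebp to 0.28 for Fdft1. The LXR-linked mean was below the controls in all 3 siHnrnpd libraries, but its 3 genes did not move alike. In siHnrnpd 1 to 3, Mylip was at -0.68, -0.47 and -0.45 and Abca1 at -0.35, -0.048 and -0.64. Nr1h2 was above 0 in each, at 0.18, 0.059 and 0.13. No p is given for the group means, since the genes were chosen with earlier results known. With 3 genes, the LXR-linked median is the value of Abca1.

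**Figure D5:**
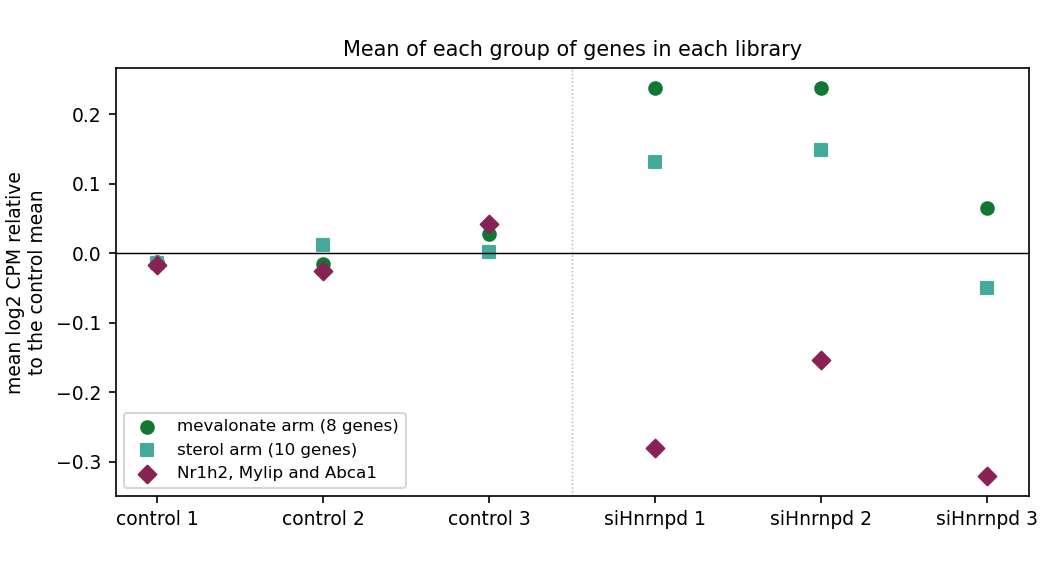
Mean log2 CPM relative to control in each library for the mevalonate arm (8 genes), the sterol arm (10 genes) and the 3 LXR-linked genes. The LXR-linked mean is -0.28, -0.15 and -0.32 in siHnrnpd 1 to 3, while both synthesis arms are above 0 in siHnrnpd 1 and 2, and in siHnrnpd 3 they are at 0.066 and -0.049.

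Neighbouring pathways were read from further lists, not counting the interferon-stimulated and marker lists. In these pathway lists edgeR called 0 genes, against 0.0815% of all genes tested. DESeq2 called 1, Fntb of the isoprenoid branch, against 0.866% of all genes in that fit. Counts here are at an unadjusted p under 0.05, at which 5.84% of all genes were higher and 5.20% lower. The genes that process SREBP or degrade sterol enzymes had a median log2 change of 0.026. The sterol-sensing ubiquitin ligase Rnf139 was at -0.33 on the log2 scale (edgeR adjusted p = 0.452). Of 15 tested genes of uptake, esterification and transport, 1 was higher and 1 lower, with a median of 0.045. The lipoprotein receptor Scarb1 had 7.74 ± 0.48 and 9.69 ± 0.17 CPM without overlap (SD, n = 3 each), and the lysosomal lipase Lipa had 49.7 ± 4.07 and 41.4 ± 5.35 CPM.

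Of 7 tested LXR partners and targets outside the main set, 1 was higher and 0 lower. Their median was 0.11, with 5 of 7 above 0, and it was -0.048 without control 1. This list mixes receptor genes with targets, so its median does not describe targets alone. The receptor genes Rxra, Rxrb and Nr1h3 were above 0, while the targets went both ways. Apoe and Pltp had log2 values of 0.13 and 0.11, and Lpcat3 and Abcg4 had -0.18 and -0.48. Pltp and Abcg4 were near the floor, at 0.90 and 0.36 CPM on average in control. Rxra, the receptor that pairs with LXR, stood at 14.4 ± 1.65 CPM in control libraries and 17.9 ± 1.77 CPM under siHnrnpd (SD, n = 3 each), 0.31 on the log2 scale (edgeR adjusted p = 0.370). Nr1h3, which encodes LXR-alpha, had 0.84 ± 0.27 and 1.10 ± 0.12 CPM, far under the 99.1 ± 14.7 CPM of Nr1h2 in control. Of 16 fatty acid synthesis genes, many of them SREBP-1 targets, 0 were higher and 1 lower, with a median of 0.053. That one was the acyl-CoA synthetase Acsl3, with 102 ± 13.3 and 80.5 ± 6.56 CPM, while fatty acid synthase (Fasn) was at 0.16 on the log2 scale (edgeR adjusted p = 0.554). Without siHnrnpd 3, 4 of the 16 were higher, against 4.93% of all genes in that fit.

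The isoprenoid branch, which uses farnesyl and geranylgeranyl units for proteins, dolichol and ubiquinone, had 0 of 14 genes higher and 2 lower, with a median of 0.0046 that lay from -0.053 to -0.0012 when 1 library was left out. Fntb, the beta subunit of farnesyltransferase, had 82.1, 87.2 and 88.5 CPM in control and 72.3, 66.2 and 69.3 CPM in siHnrnpd. Its groups did not overlap, and its log2 value was -0.31 with an SE of 0.067 (edgeR adjusted p = 0.171). Pdss2, a subunit of the enzyme that builds the ubiquinone side chain, had 15.4 ± 0.26 and 13.1 ± 1.19 CPM. Of 7 further sterol enzymes tested, 1 was higher and 1 lower. The lower one, Faxdc2, which encodes a protein with a fatty acid hydroxylase domain, had 4.67 ± 0.42 and 3.10 ± 0.77 CPM (SD, n = 3 each). Of 3 tested oxysterol enzymes, 0 were under an unadjusted p of 0.05. Hsd3b7 had 43.8 ± 6.82 and 38.1 ± 3.01 CPM, and Cyp27a1 was at 0.52 ± 0.22 and 0.28 ± 0.21 CPM.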

How the data were processed

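RNA from 6 libraries of HEI-OC1 cells was read as 150 nt paired ends, per the labels' protocols. The authors aligned the reads with TopHat2 and named the build mRatBN7.2, per the submitters' processing notes. Which program counted the reads, with which annotation and whether by strand, is not given in the sources used here. Genes that overlap, or lie antisense to each other, may therefore share reads. The deposited tables hold raw read counts per gene (18718 genes) and FPKM values computed by the authors (18628 genes), and 0 columns were without a sample.

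The test was edgeR 4.0.16 (R 4.3.3) on the deposited counts across all genes, with TMM scaling, filterByExpr and a quasi-likelihood fit on group. Adjustment by Benjamini-Hochberg ran over 12268 genes, and calls were made at 0.05. CPM used TMM-scaled library sizes, and log2 CPM a prior count of 2. The fits were tested on simulated counts. The median SE of a log2 change was 0.105. Each of the 15 library pairs was farther apart than sampling noise. Alternatives were DESeq2 1.42.0, RLE scaling, other filters, fits without 1 library, a fit with a replicate block, and limma 3.58.1 on log2(FPKM + 1) or log2(FPKM + 0.1), a scale that understates changes of low genes.

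The genes and lists were chosen with earlier results of these data known. Per library values were given for Mylip, Abca1 and up to 4 genes of each role with the smallest p, and those of Fdps were added after its values were seen. From each further list up to 2 genes with the smallest p were taken, and not every one of them is named. Of 140 further list entries, 124 matched by symbol, 2 through synonyms of RefSeq's GRCr8 table, and 14 were unmatched. Where a symbol had more than 1 row, the one with more counts was used. Promoters are RefSeq's, and of Srebf1's entries the first was used.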

Additional observations from a re-analysis of the deposited data

How the results depend on the processing

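The sign of the fitted value was the same as reported for all 29 genes under DESeq2, both edgeR filters, RLE scaling and the replicate block. Under the FPKM settings Idi1 was the exception, at 0.0086 on log2(FPKM + 1), with or without the minimum of 1 FPKM, and 0.0087 on log2(FPKM + 0.1). With 1 library left out the value ran from -0.068 to 0.081 for Idi1, from -0.035 to 0.076 for Msmo1, from -0.056 to 0.10 for Scap, from -0.075 to 0.19 for Srebf1 and from -0.013 to 0.16 for Srebf2. Of the 29 genes, DESeq2 and edgeR without a filter called 2 each (Mylip and Fdft1), and each fit without 1 library called 0. Those at an unadjusted p under 0.05 were 8 higher without a filter, against 4.65% of all genes in that fit. The 3 FPKM settings gave 6 to 7 higher, against 4.94% to 6.65% of all genes, and 1 lower, against 3.67% to 4.68%. Leaving out 1 library gave 3 to 11 higher and 1 to 2 lower. The shares of all genes in those fits were 2.93% to 8.84% higher and 2.88% to 6.64% lower. The LXR-linked median was -0.20 and its distance to the synthesis genes 0.36 on log2(FPKM + 1), with or without the minimum. Leaving out 1 library gave -0.49 to -0.20 for that median, 0.40 to 0.58 for the distance, 0.094 to 0.19 for the synthesis median and 13 to 15 synthesis genes above 0.

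Over all genes, edgeR called 10, of which 3 were higher and 7 lower. DESeq2 called 162 (55 and 107), edgeR without a filter 147 (46 and 101), and requiring 50 counts in 3 libraries gave 5 higher. Limma called 5 (1 and 4) on log2(FPKM + 0.1). On log2(FPKM + 1) it called 0 in either direction, with or without the minimum, although 1157 and 1604 genes were under an unadjusted p of 0.05. Leaving out 1 library gave 0 to 14 called, 0 to 7 higher and 0 to 7 lower, and 0 were called without control 1, 2 or 3 (964, 724 and 1919 genes at an unadjusted p under 0.05). With the replicate block edgeR called 0 genes, 0 higher and 0 lower, with 1062 at an unadjusted p under 0.05. The same-numbered libraries correlated in their deviations from the group means at -0.26, 0.14 and 0.10, and the other pairs at -0.33 to 0.23. With 3 libraries a group, these values depend on each other and cannot show whether the numbers pair the samples. The causes of these shifts were not tested. Insig2 and Stard4 rest on the fewest counts of the 29, with 176 to 284 and 214 to 357 a library.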
